A study of Mus musculus with 12 samples.

Results

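Hemoglobin is the oxygen carrier of red blood cells, a tetramer of alpha and beta globin chains that each hold a heme group. The genes described here were listed by name: the adult alpha globin genes Hba-a1 and Hba-a2, the adult beta globin genes Hbb-bs and Hbb-bt, the heme synthesis enzymes Alas2 and Fech, the red cell enzyme Bpgm and the globin chaperone Ahsp. Of these 8 genes, 7 were found by mouse symbol among the 54838 genes counted, and all 7 passed the filter on low counts, which kept 31109 genes. Ahsp matched no symbol in the name tables and is not analysed here. The genes were followed across 12 RNA sequencing libraries as a measure of blood RNA in spinal cord preparations.

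The libraries came from P60 mice of 2 genotypes, both carrying the Tet1 fl/fl allele: control mice (Olig1+/+;Tet1 fl/fl, labelled wildtype) and mutant mice (Olig1cre/+;Tet1 fl/fl), in which Cre from the Olig1 locus removes a Tet1 exon in OLIG1-expressing cells. Cells came either from cord 4 days after lysolecithin, a detergent that strips myelin, was injected into the ventrolateral white matter (4dpl), or from unlesioned cord of the opposite side, giving 4 groups of 3 libraries. Mice of either sex were used, tissue was dissociated with papain, and a Percoll density gradient served to remove blood vessels and enrich oligodendroglial cells, with no sorting. The study's methods call the samples of a condition biological replicates, but neither they nor the labels say whether each library is 1 mouse or a pool, or which libraries share a mouse, so that p-values measure the spread between these libraries.

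Total counts were between 34805086 and 67251544 per library, so that counting error was small for the 7 members, which had at least 5849 counts in every library, and the number of libraries limited their precision. Tet1, counted over all its exons and therefore no test of the exon removed, was between 11.7 and 18.3 CPM (counts per 1000000) in control and between 9.94 and 21.5 CPM in mutant libraries. The 12 oligodendrocyte lineage markers took between 1.71 and 6.0% of the counts of a library. The 12 endothelial markers were all detected and took between 0.00360 and 0.00977%, and 13 neutrophil markers, led by S100a8 and S100a9, between 2.25 and 15.2%.

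Circulating red cells have lost their nucleus and hold the RNA made earlier in the bone marrow, most of it in reticulocytes, the youngest of them. Globin transcripts make up most of that RNA, so that a small admixture of blood can take a visible share of the reads of another tissue. Alas2 makes the first precursor of heme in erythroid cells, Fech inserts the iron into the ring as the last step, and Bpgm makes 2,3-bisphosphoglycerate, which lowers the oxygen affinity of hemoglobin. In precursors of red cells the factors GATA1 and KLF1 bind GATA motifs and CACCC boxes of the globin genes, near the other boxes of their promoters.

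The genes lie in the mouse genome (GRCm38) at chr11:32283511-32284465 (Hba-a1, ENSMUSG00000069919) and chr11:32296489-32297298 (Hba-a2) on the plus strand, and at chr7:103826534-103828096 (Hbb-bs, ENSMUSG00000052305) and chr7:103812524-103813996 (Hbb-bt) on the minus strand. Alas2 lies at chrX:150547375-150570638 and Bpgm at chr6:34476207-34505613, both on the plus strand, and counts cover their exons.

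The promoters of 4 members, Hba-a1, Hbb-bs, Hbb-bt and Alas2, are shown. The window of Bpgm was searched but is not printed. Bpgm also varied with hemoglobin over the 12 libraries (Pearson r = 0.81, against 0.85 for Alas2). A part of the motifs in these levels was not tested. RefSeq sequences on GRCm38.p6, from 250 bases before to 50 bases after the annotated start, were matched by symbol for 6 members, and those for Fech and Ahsp are not used here. Capitals mark 4 motifs searched on both strands, which may overlap. They are the motif of GATA factors, spelled GATAA, the box bound by KLF1, spelled CACCC, the promoter box named by its letters CCAAT, and the box of the basal machinery, spelled TATAA. The windows are Hba-a1 at chr11:32283422-32283721 on the plus strand, Hbb-bs at chr7:103827879-103828178 and Hbb-bt at chr7:103813874-103814173 on the minus strand, and Alas2 at chrX:150547167-150547466 on the plus strand.
Hba-a1: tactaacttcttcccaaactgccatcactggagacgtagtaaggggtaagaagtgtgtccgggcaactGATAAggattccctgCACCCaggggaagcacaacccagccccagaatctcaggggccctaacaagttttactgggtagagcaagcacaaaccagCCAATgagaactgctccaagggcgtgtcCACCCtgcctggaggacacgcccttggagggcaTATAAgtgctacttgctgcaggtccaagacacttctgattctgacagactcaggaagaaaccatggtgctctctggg
Hbb-bs: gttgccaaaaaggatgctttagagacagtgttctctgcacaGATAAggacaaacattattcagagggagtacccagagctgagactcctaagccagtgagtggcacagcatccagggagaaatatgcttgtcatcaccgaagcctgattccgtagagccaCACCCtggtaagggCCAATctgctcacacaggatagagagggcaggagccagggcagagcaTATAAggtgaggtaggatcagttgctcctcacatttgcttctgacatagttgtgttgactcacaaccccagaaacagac
Hbb-bt: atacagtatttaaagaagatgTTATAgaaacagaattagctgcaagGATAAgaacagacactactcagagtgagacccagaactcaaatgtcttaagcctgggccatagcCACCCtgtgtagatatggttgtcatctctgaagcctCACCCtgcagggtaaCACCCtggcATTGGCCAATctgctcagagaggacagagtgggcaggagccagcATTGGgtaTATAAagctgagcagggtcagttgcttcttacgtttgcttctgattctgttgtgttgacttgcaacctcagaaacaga
Alas2: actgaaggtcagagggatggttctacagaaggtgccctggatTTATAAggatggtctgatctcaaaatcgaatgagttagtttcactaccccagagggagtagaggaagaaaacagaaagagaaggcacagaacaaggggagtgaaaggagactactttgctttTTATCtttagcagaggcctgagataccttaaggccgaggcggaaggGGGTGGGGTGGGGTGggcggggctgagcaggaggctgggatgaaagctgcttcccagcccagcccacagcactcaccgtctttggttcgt
The promoter of Hba-a2 at chr11:32296242-32296541 shared an unbroken run of 298 bases with that of Hba-a1. All 4 motifs were found in the windows of the 4 globin genes, and all but the letters CCAAT were found in that of Alas2. In Alas2 the letters TATAA lay 207 bases before the annotated start, with an overlapping match on the other strand. The TATA box lay 27 bases before the annotated start of Hba-a1, 29 before that of Hbb-bs and 28 before that of Hbb-bt, with the CCAAT box at 88, 76 and 75 bases. Of 32544 distinct promoter windows of this length, 25.3% held the GATA motif, 57.7% the KLF1 box, 37.4% the CCAAT box and 24.8% the TATA box. The window of Bpgm held CCAAT 3 times and none of the other 3 motifs.

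The globin genes were among the most abundant transcripts of every library (the plot of hemoglobin shares). Added together, Hba-a1, Hba-a2, Hbb-bs and Hbb-bt took 7.62, 11.2 and 4.38% of all counts in control unlesioned libraries 1 to 3, and 3.36, 2.74 and 1.07% at 4dpl. In the mutant, they took 4.94, 2.07 and 3.17% in unlesioned libraries and 4.00, 2.80 and 2.30% at 4dpl. The ends of the range, 1.07 and 11.2%, both came from control mice. All 3 control unlesioned libraries lay above all 3 control 4dpl libraries on this scale, while the mutant groups overlapped.

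**Figure D1:**
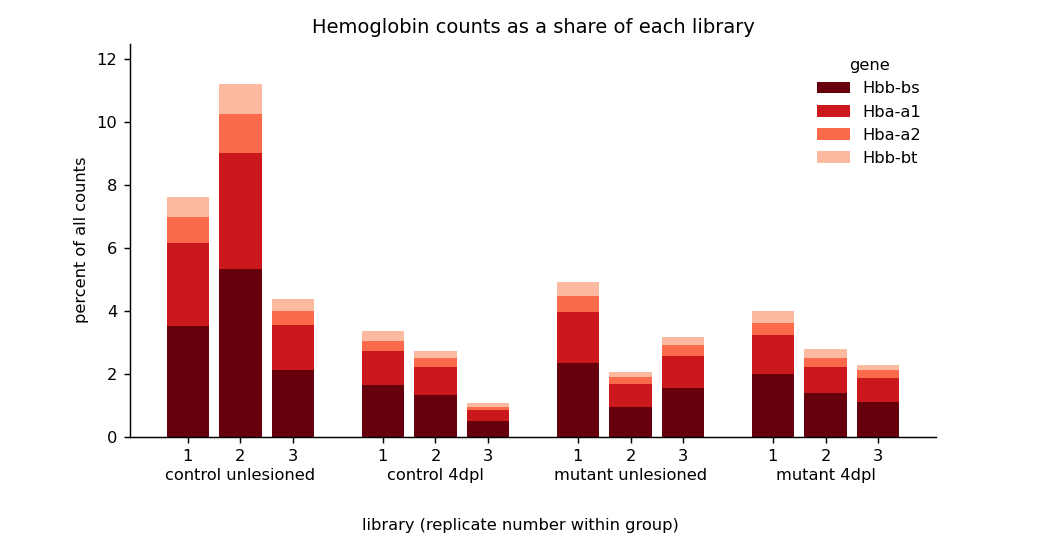
Share of all counts taken by the 4 adult globin genes in each library (bars, in percent, stacked by gene), for the 3 libraries of each group. Control unlesioned libraries reached 11.2%, and the lowest bar, control 4dpl library 3, stood at 1.07%.

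Hbb-bs was the most abundant member, ranking between 1 and 16 among all genes by count. Its level, in CPM scaled by the trimmed mean of M values (TMM), was 40198, 46989 and 16240.0 in control unlesioned libraries, 19148, 15580.1 and 5548 in control 4dpl libraries, 19727, 8267 and 12154 in mutant unlesioned libraries and 21334, 17442 and 12659.8 in mutant 4dpl libraries. Control unlesioned libraries 1 and 2 stood above all others, library 3 of that group fell inside the range of the other groups, and control 4dpl library 3 was the lowest of the 12. Hba-a1, whose protein pairs with the beta chains, had CPM values of 29799, 32388 and 11082 in control unlesioned libraries, 12875, 10298 and 3671 in control 4dpl libraries, 13444, 6179 and 8107 in mutant unlesioned libraries and 13239.7, 10195 and 8943 in mutant 4dpl libraries. The same 2 libraries were highest and the same library lowest.

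Hba-a2, the second alpha globin gene, had CPM values of 9512, 10854 and 3438 in control unlesioned libraries, 3671, 3242 and 1236 in control 4dpl libraries, 4319.7, 1842 and 2636 in mutant unlesioned libraries and 4229, 3567 and 2926 in mutant 4dpl libraries. Hbb-bt, the second adult beta globin gene, had CPM values of 7060.0, 8381 and 2929.7 in control unlesioned libraries, 3671, 2777 and 1264 in control 4dpl libraries, 3859, 1526 and 2119 in mutant unlesioned libraries and 4156, 3549 and 2082 in mutant 4dpl libraries. On the TMM scale the groups overlapped in all 4 comparisons for each of these 4 genes, with control unlesioned library 3 inside the range of the other groups, and they overlapped for Alas2, Fech and Bpgm too. Of all genes tested, 21.4% lay without overlap lower and 16.5% higher in control 4dpl libraries, and 23.2 and 18.8% in mutant 4dpl libraries. Between genotypes, mutant libraries lay without overlap lower for 6.28% and higher for 4.09% of genes when unlesioned, and for 5.44 and 7.34% at 4dpl. The highest library exceeded the lowest by 8.82 times for Hba-a1, 8.78 for Hba-a2, 8.47 for Hbb-bs and 6.63 for Hbb-bt.

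Alas2, the erythroid form of the first heme synthesis enzyme, had CPM values of 2616, 1345 and 498 in control unlesioned libraries, 1498, 816 and 381 in control 4dpl libraries, 1379, 415 and 705 in mutant unlesioned libraries and 1379, 1014 and 751 in mutant 4dpl libraries. Control unlesioned library 1 was the highest, whereas library 2 of that group, highest of all for the globins, was at 1345 CPM for Alas2. Bpgm had CPM values of 941, 531 and 245 in control unlesioned libraries, 587, 354 and 221 in control 4dpl libraries, 600.2, 191 and 278 in mutant unlesioned libraries and 571, 466 and 432 in mutant 4dpl libraries. Fech had CPM values of 605, 189.6 and 114 in control unlesioned libraries, 379.9, 212 and 188 in control 4dpl libraries, 402, 154 and 189 in mutant unlesioned libraries and 399.6, 297 and 261 in mutant 4dpl libraries. Fech, which cells other than red cells also use, spanned 5.29 times between its highest and lowest library and Bpgm 4.92 times, against 6.87 times for Alas2. In each of the 4 groups, the library numbered 1 was the highest for Alas2, Fech and Bpgm, and in 3 of the 4 groups it was also the highest for each globin gene.

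**Figure D2:**
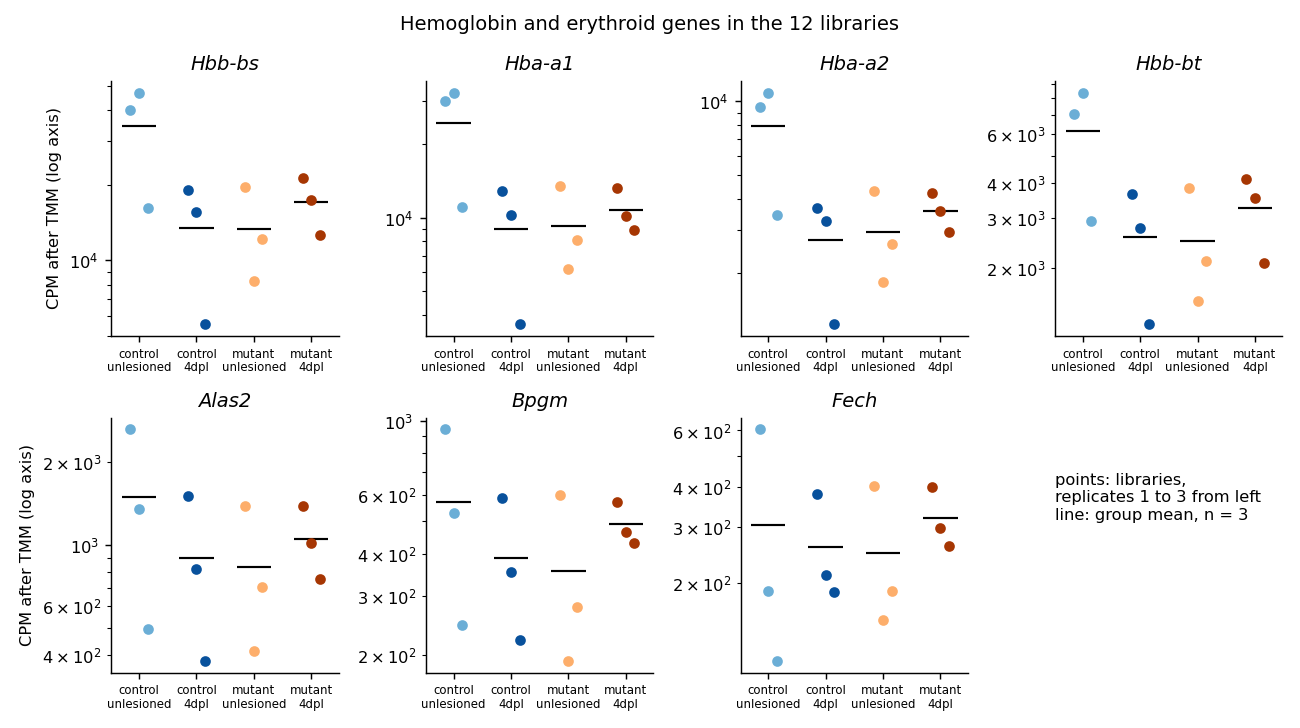
Level of each member in CPM after TMM (log axis) by group, with the 3 libraries of a group as points and their mean as a line. The groups overlap for all 7 genes, and control unlesioned library 3 lies well below libraries 1 and 2 for the globin genes.

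Per kilobase of exon, the order of the members was Hbb-bs, Hba-a1, Hba-a2, Hbb-bt, Alas2, Bpgm and Fech, at means of 25530.2, 16443, 6431, 5141, 443.8, 126 and 97.4 CPM per kilobase over the 12 libraries. The order of neighbours held in all 12 libraries, except that Bpgm exceeded Fech in 11. Hba-a2 and Hbb-bt were close, with a ratio between 1.03 and 1.48, and their means differed by less than the spread over libraries (SD 4359 and 3051).

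The proportions of the globin genes to each other varied little, although their level varied several times over (the plot of ratios within a library). Per base, Hba-a1 exceeded Hba-a2 by 2.57 ± 0.14 times (SD, n = 12 libraries, range 2.35 to 2.88) and Hbb-bs exceeded Hbb-bt by 4.92 ± 0.41 times (range 4.02 to 5.57). Alpha globin counts per base were 0.738 ± 0.052 of beta globin counts (range 0.645 to 0.817). Within each pair the split is uncertain. Of the 100-base windows of an Hba-a1 transcript, 56.5% also occur in Hba-a2, and 62.6% of those of Hbb-bs occur in Hbb-bt, and reads that align to both genes are not counted.

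The 3 other members did not keep such a fixed proportion. Alas2 stood at 30.2, 13.6 and 14.8 counts per 1000 hemoglobin counts in control unlesioned libraries, 38.1, 25.6 and 32.5 at 4dpl, 33.3, 23.3 and 28.2 in mutant unlesioned libraries and 32.1, 29.2 and 28.2 at 4dpl. Control unlesioned libraries 2 and 3 were the 2 lowest of the 12. Fech was between 1.92 and 6.99 per 1000 in control unlesioned libraries and between 6.65 and 16.0 in control 4dpl libraries, with overlap, and Bpgm between 5.38 and 10.9 and between 11.1 and 18.9, without. In the mutant both overlapped between unlesioned and 4dpl libraries, with Fech between 7.55 and 9.72 and between 8.54 and 9.83, and Bpgm between 10.7 and 14.5 and between 13.3 and 16.2. These ratios do not depend on how libraries are scaled, but hemoglobin, their denominator, took a lower share of counts in control 4dpl libraries. A gene that fell less than hemoglobin rises in the ratio. Bpgm itself had a mean of 572 CPM in control unlesioned and 387 CPM in control 4dpl libraries. How many of all genes separate on this ratio was not computed.

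**Figure D3:**
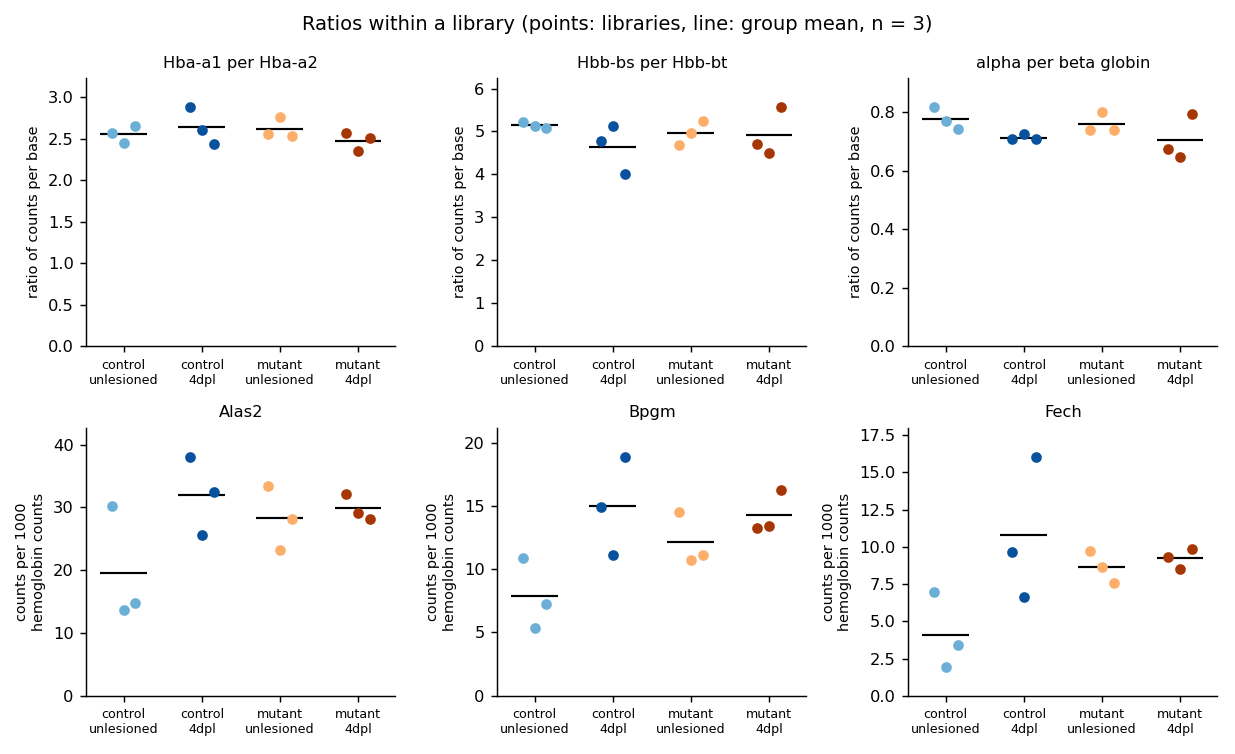
Ratios within each library by group, with libraries as points and group means as lines: the upper panels show globin genes against each other in counts per base, the lower panels Alas2, Bpgm and Fech per 1000 hemoglobin counts. Globin ratios stay within narrow bands, while Alas2 ranges from 13.6 to 38.1.

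The lesion comparison in control mice asks how the preparation differed at 4dpl. The summed hemoglobin level was 72957 ± 34535 CPM (SD, n = 3) in unlesioned and 27660.2 ± 14301 CPM in 4dpl libraries, a log2 ratio of means of -1.40. All 7 members were lower on average at 4dpl: the log2 difference was -1.55 for Hba-a2 (SE 0.51, adjusted p = 0.0620), -1.45 for Hba-a1 (SE 0.54, adjusted p = 0.0856), -1.36 for Hbb-bs (SE 0.56, adjusted p = 0.108) and -1.25 for Hbb-bt (SE 0.51, adjusted p = 0.105). Alas2 differed by -0.73 (SE 0.60), Bpgm by -0.56 (SE 0.50) and Fech by -0.22 (SE 0.53). The direction of Fech was not stable: it turned to 0.45 with limma and voom and to 0.80 without control unlesioned library 1. Bpgm turned to 0.027 without that library. No member passed the test of edgeR (p below 0.01 and Benjamini-Hochberg adjusted p below 0.05), which called 10.1% of all genes tested. At an unadjusted p below 0.05, 4 members, the globin genes, were lower, against 20.1% of all genes. The median of the members was -1.25, that of all genes tested -0.36.

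The call for the globin genes depended on the tool. DESeq2 called the 4 globin genes lower and no other member, with adjusted p between 0.00684 and 0.0293, as did limma with voom and sample weights. These tools also called more of all genes, 6996 with DESeq2 and 9663 with voom against 3150 with edgeR. As a plain share of counts, the 4 globin genes of the 3 control 4dpl libraries lay below all 3 unlesioned libraries, as did 27.1% of all genes tested. Fewer red cells in the preparation, less RNA per red cell and more RNA from other cells cannot be told apart in bulk libraries. Every level here is relative to the other RNA of the library, and the part of each was not tested.

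In mutant mice, no fall of hemoglobin was detected. The summed level was 28059 ± 12060 CPM (SD, n = 3) in unlesioned and 34774 ± 8174 CPM in 4dpl libraries, a log2 ratio of 0.31, which turned to -0.16 when libraries were scaled by total counts alone. With TMM the log2 differences of the members ran from 0.22 for Hba-a1 (SE 0.53) to 0.46 for Bpgm (SE 0.50), and with total counts from -0.25 to -0.02, so that their direction depends on the scaling. No member passed the edgeR test, at an adjusted p of 0.520 or higher, and none had an unadjusted p below 0.05, against 15.9% of all genes higher and 17.9% lower at that level. DESeq2 and voom also called none. Of all genes tested, 0.135% were called. Relative to TMM, scaling by total counts shifts the mean log2 scale between groups by -0.48 in mutant and by -0.32 in control mice, since TMM factors were between 1.16 and 1.27 in mutant unlesioned, 0.806 and 0.932 in mutant 4dpl, 0.880 and 1.30 in control unlesioned and 0.853 and 0.910 in control 4dpl libraries.

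The comparison of genotypes without lesion uses the same control unlesioned libraries as the lesion comparison in control mice. The members were lower in mutant than in control unlesioned libraries, with log2 differences of -1.44 for Hba-a2 (SE 0.51, adjusted p = 0.779), -1.40 for Hba-a1 (SE 0.54), -1.37 for Hbb-bs (SE 0.56) and -1.29 for Hbb-bt (SE 0.51). The differences were -0.84 for Alas2, -0.68 for Bpgm and -0.29 for Fech. That of Fech turned to 0.28 with voom, to 0.0044 with total counts only and to 0.71 without control unlesioned library 1. No member passed the edgeR test, as no gene of the whole table did (0% called). The 4 globin genes had an unadjusted p below 0.05, against 3.5% of all genes lower at that level. At 4dpl the genotypes were closer, with differences between 0.22 and 0.40 for the 7 members. Without control 4dpl library 3 these turned negative for every member but Fech, from -0.22 for Alas2 to -0.026 for Bpgm. With all libraries, every member had an adjusted p of 0.965 or higher and none an unadjusted p below 0.05. At that unadjusted level, 5.15% of all genes were higher and 1.77% lower, and 0% were called by the edgeR test. DESeq2 and voom called no member in either comparison.

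The change at 4dpl differed between genotypes by 1.83 on the log2 scale for Hba-a2 (SE 0.71), 1.72 for Hbb-bs (SE 0.78), 1.67 for Hba-a1 (SE 0.76) and 1.64 for Hbb-bt (SE 0.71), in the direction of a larger drop in control mice. The 4 globin genes had unadjusted p-values between 0.0213 and 0.0447 in this interaction test of edgeR, and 2.66% of all genes lay higher at an unadjusted p below 0.05. After adjustment none passed, with an adjusted p of 0.9999, and 0% of all genes were called. Alas2 differed by 1.06 (SE 0.84), Bpgm by 1.02 (SE 0.70) and Fech by 0.58 (SE 0.74). DESeq2 and voom called no member. The difference therefore did not exceed the spread between libraries after correction. Averaged over both genotypes, 0 members were called by edgeR, DESeq2 or voom, and none had an unadjusted p below 0.05, while edgeR called 32.8% of all genes, and 21.3% were higher and 30.7% lower at an unadjusted p below 0.05.

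**Figure D4:**
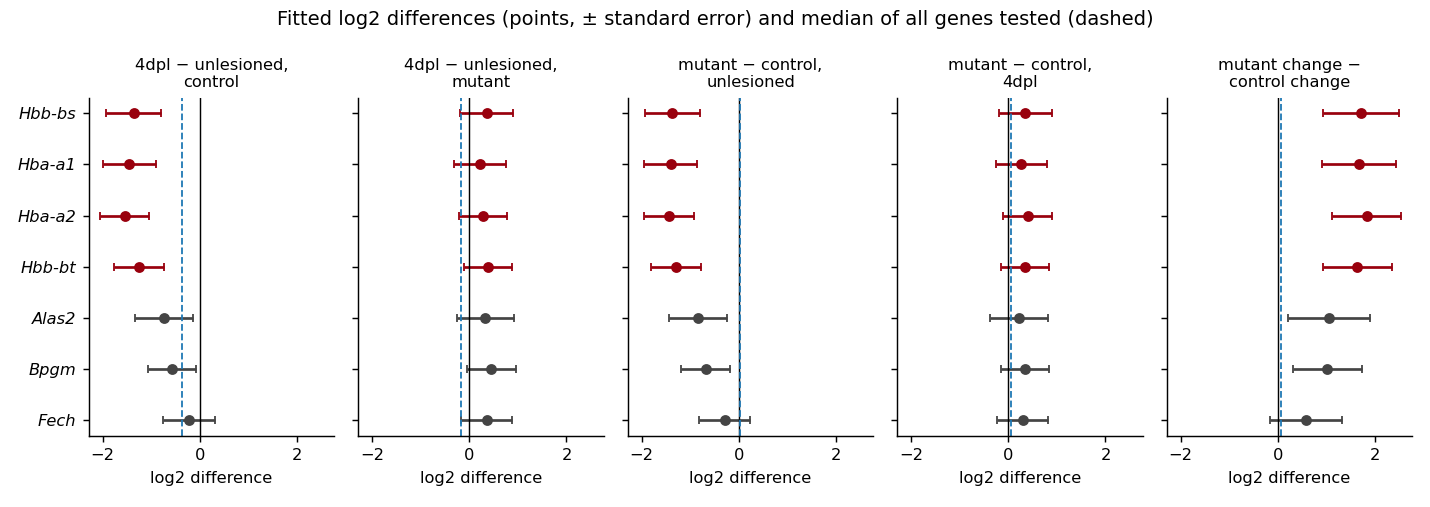
Fitted log2 differences of the 7 members (points, ± standard error) in the 4 comparisons of groups and in the interaction, with the median of all genes tested as a dashed line. Globin genes (red) lie between -1.55 and -1.25 in control mice at 4dpl and between 0.22 and 0.38 in mutant mice, where scaling by total counts turns them negative.

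Other erythroid genes were counted from lists of known red cell genes. In control mice at 4dpl, 3 of 17 tested red cell membrane genes fell and none rose: Add2 (log2 difference -1.44, SE 0.30, adjusted p = 0.0264), Ank1 (-1.50, SE 0.34, adjusted p = 0.0291) and Rhd (-1.63, SE 0.47, adjusted p = 0.0449). Add2 and Ank1 encode adducin and ankyrin of the membrane skeleton, and Rhd a blood group protein. The list had a median of -0.92, and 5.01% of all genes were called lower and 5.12% higher. Ank1 went from a mean of 15.2 ± 4.5 CPM to 5.36 ± 2.27 CPM (SD, n = 3). Slc4a1, the anion exchanger band 3, was at 169 ± 134 CPM in control unlesioned and 84.8 ± 37.7 CPM in control 4dpl libraries (SD, n = 3) and was not called. Control unlesioned library 1 had 3.71 Slc4a1 counts per 1000 hemoglobin counts, against 1.23 and 1.95 in libraries 2 and 3. Control 4dpl library 3, at 4.18, and mutant unlesioned library 2, at 5.33, stood higher.

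Of 12 erythroid transcription factors, Gata1 (log2 difference -2.06, SE 0.50, adjusted p = 0.0346) and its partner Zfpm1 (-1.88, SE 0.51, adjusted p = 0.0401) fell, and the list had a median of -1.01. Klf1 was at 17.96 ± 6.2 CPM in control unlesioned and 4.58 ± 2.02 CPM in control 4dpl libraries, a difference of -1.97 (SE 0.62) that missed the threshold at an adjusted p of 0.0564. Of 20 genes of red cell enzymes and maturation, a list that holds Bpgm and Fech, 2 fell: Tspan33 (-2.56, SE 0.41, adjusted p = 0.0214), a tetraspanin of erythroid precursors, and Ube2o (-1.58, SE 0.39, adjusted p = 0.0353), the ubiquitin ligase that clears ribosomes from reticulocytes. The median of that list was -0.68. Of 13 genes of heme synthesis and transport, which include Alas2 and Fech, none was called by edgeR or DESeq2, with a median of -0.22. The 1 gene with an unadjusted p below 0.05 was higher at 4dpl: Flvcr1, a heme exporter (log2 difference 1.02, SE 0.38, adjusted p = 0.0854).

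In mutant mice none of these 4 lists held a called gene, with medians of -0.08 for membrane genes, 0.28 for enzymes, -0.23 for transcription factors and 0.36 for heme synthesis, against -0.18 for all genes, all on the TMM scale. Gata1 differed by -1.65 (SE 0.50, adjusted p = 0.0662) there, and Car1, a carbonic anhydrase of red cells, by -1.65 (SE 0.55, adjusted p = 0.0758). The calls in control mice rest on few libraries: without control unlesioned library 2, or control 4dpl library 1 or 2, none of the genes in these 4 lists was called, and the whole table held 1, 4 and 2 calls. Without control 4dpl library 3, 1 enzyme gene was left (1839 calls in all), without control unlesioned library 3, 2 enzyme genes and 1 membrane gene (114 calls), and without mutant unlesioned library 3, 1 transcription factor, 1 enzyme gene and 2 membrane genes (880 calls). Without control unlesioned library 1, 4 enzyme genes and 1 heme synthesis gene were called (7401 calls). Between genotypes, and for the difference in change, the 4 lists held 0 called genes.

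Globins made before birth were nearly absent. Hba-x, Hbb-y, Hbb-bh1 and Hbb-bh2 reached at most 17, 15, 5 and 22 counts in a library, against at least 53660 for any adult globin gene. The theta globins were detected in every library, Hbq1b with between 86 and 752 counts and Hbq1a with between 23 and 261. In control mice Hbq1b was at 10.7 ± 6.0 CPM in unlesioned and 3.87 ± 1.88 CPM (SD, n = 3) in 4dpl libraries, and it was not called (log2 difference -1.47, SE 0.54, adjusted p = 0.0837).

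Few genes shared the pattern of hemoglobin over the 12 libraries. Of 15756 genes with a mean log2 CPM of at least 0, 19 outside the members, or 0.121%, had a Pearson correlation of at least 0.8 with the summed hemoglobin level on the log2 scale. The libraries share depth and scaling, so the values are a description. Among the 10 highest were Fam220a (r = 0.94), Isg20 (0.93), Ube2l6 (0.92), Hbq1a (0.91), Trim10 (0.91), March2 (0.89), Hbq1b (0.89) and Ube2o (0.88). Trim10, which acts in terminal erythroid differentiation, ranged from 22.9 to 95.2 CPM in control unlesioned and from 11.9 to 40.7 CPM in control 4dpl libraries, and from 17 to 36.2 CPM and 14.7 to 30.4 CPM in the mutant groups. Among the members themselves, Alas2 had an r of 0.85, Bpgm of 0.81 and Fech of 0.48.

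Neutrophil markers were high in these libraries too (the plot of hemoglobin against marker lists), and their highest library, mutant unlesioned library 2, had 2.07% of hemoglobin counts. The 13 neutrophil markers summed to between 49026 and 106197 CPM in control unlesioned, 32346 and 40843 in control 4dpl, 33718 and 130391 in mutant unlesioned and 24175 and 118937 in mutant 4dpl libraries, and their summed level had an r of 0.25 with hemoglobin (rho = -0.01, n = 12). The correlation was 0.75 for 18 red cell membrane genes (rho = 0.78) and 0.73 for the heme synthesis list without Alas2 and Fech (rho = 0.69), but 0.65 for red cell enzymes (rho = 0.67) and 0.39 for erythroid transcription factors (rho = 0.24). Among white cell lists it was 0.59 for T and NK cell markers (rho = 0.57), 0.34 for B and plasma cell markers (rho = 0.39) and 0.04 for monocyte markers (rho = -0.10). B and plasma cell markers took between 0.0233 and 0.0696% of counts and T and NK cell markers between 0.0107 and 0.0212%. No neutrophil marker was called by edgeR in control mice at 4dpl (6 were lower at an unadjusted p below 0.05, against 20.1% of all genes, and DESeq2 called 6, against 6996 genes in all), where 13 of 13 were lower with a median of -1.08. In mutant mice 13 of 13 were lower too, with a median of -0.43 and no call (0 at an unadjusted p below 0.05). In control mice Elane, a granule protease of immature neutrophils, was at 515 ± 136 CPM in unlesioned and 171 ± 107 CPM in 4dpl libraries. The part of white blood cells in the hemoglobin values was not tested.

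**Figure D5:**
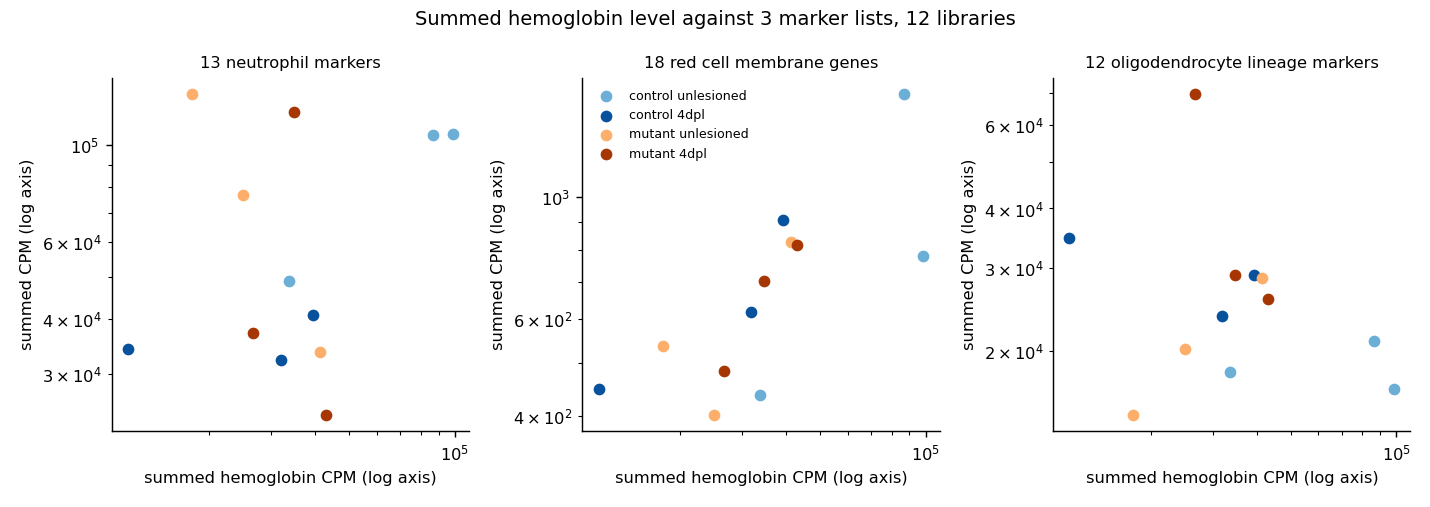
Summed CPM of 13 neutrophil markers, 18 red cell membrane genes and 12 oligodendrocyte lineage markers against the summed hemoglobin CPM of each library (both axes log), with points coloured by group. Red cell membrane genes follow hemoglobin (r = 0.75), and neutrophil markers less so (r = 0.25).

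Platelet and vessel markers were low beside hemoglobin. The 13 platelet and megakaryocyte markers summed to between 47.5 and 84.0 CPM in control unlesioned and between 135 and 321 CPM in control 4dpl libraries. Pf4, a platelet chemokine that macrophages also make, rose from 17.3 ± 9.996 to 153 ± 94 CPM (SD, n = 3, log2 difference 3.14, SE 0.59, adjusted p = 0.0252), while the platelet collagen receptor Gp6 fell (log2 difference -2.33, SE 0.70, adjusted p = 0.0494), at a level of few counts (0.146 CPM on average at 4dpl). Neither was called without control unlesioned library 2, or control 4dpl library 1 or 2. The 12 endothelial markers summed to between 39.6 and 77.0 CPM in any library.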

How the data were processed

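RNA of oligodendroglial-enriched spinal cord preparations was sequenced as 100 bp paired ends in 12 libraries. The authors aligned reads to mm10 (BWA in the study's methods, STAR in the submitters' processing notes), counted uniquely aligned exon reads per gene of the Ensembl GRCm38 annotation with featureCounts, and deposited raw counts, which are not normalized. Such counting leaves out reads shared by paralogues. Groups were taken from the labels.

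Counts were analysed with edgeR 4.0.16 in R 4.3.3: filterByExpr, TMM, a single fit of the 4 group means, glmQLFit and glmQLFTest, p-values adjusted by Benjamini-Hochberg over 31109 genes. Genes were called at p below 0.01 and adjusted p below 0.05. SE was obtained from the log2 difference and F. Likeness used log2 CPM with a prior count of 2. Members and lists were chosen with earlier results of these data known. Named were all members, called genes of each list (at most 4, smallest p first) or otherwise its most abundant 3, the 10 genes most like hemoglobin, and some list genes (Slc4a1, the globins made before birth) chosen after their values were seen. Some genes that this rule names are not reported here. Of the lists not on blood cells, microglia markers and genes that bind or break down hemoglobin and heme are given with their calls. Oligodendrocyte and endothelial markers are given by their sums only. Alternatives were DESeq2 1.42.0, limma 3.58.1 with voom and sample weights, other scalings, filters and thresholds, a replicate block, and leaving out each library. Scripts were tested on simulated counts.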

Additional observations from a re-analysis of the deposited data

How the results depend on the processing

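The number of members called for control mice at 4dpl, 0 by edgeR, was 4 with DESeq2 on all libraries, DESeq2 on the groups compared, voom and the replicate block, 2 with total counts only (Hba-a1 and Hba-a2), and 1 (Hba-a2) with an adjusted p of 0.1 or with the newer quasi-likelihood option of edgeR, an alternative chosen after seeing the data. For the mean of both genotypes it was 1 (Hba-a2) with total counts only. No other count of members moved, also with any library left out. The genes called over the whole table for control, 3150, were 6996 and 5318 with DESeq2, 9663 with voom, 5948 with the newer option, 4733 at an adjusted p of 0.1, 1162 with edgeR on the groups compared and 1295 with at least 10 counts in every library, and between 1 (without control unlesioned replicate 2) and 7401 (without control unlesioned replicate 1) with a library left out; for mutant, 42, they were between 0 and 6800 over these settings. The red cell membrane genes called for control, 3, were 7 with DESeq2, and the transcription factors, 2, were 6.

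Whether the replicate numbers of the labels pair the libraries was not settled. Deviations of same-numbered libraries correlated between 0.0517 and 0.189 in control and between -0.0703 and 0.0728 in mutant mice over lesion. Over genotype they correlated between -0.0542 and 0.221. No values for differently numbered libraries stand beside them, so these correlations cannot decide it. With the replicate block, 4 globin genes passed for control (adjusted p between 0.0185 and 0.0383), among 3844 genes called over the whole table. Fech reversed to 0.0706 for control and Bpgm to 0.0723 for the mean. The study's sample list numbers the control 4dpl and mutant unlesioned libraries otherwise than the labels, so the block joins libraries that those numbers do not join, and the calls gained under it rest on the labels' numbering alone. A block by the other numbers was not run.

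Directions reversed with total counts only for mutant mice (Hba-a1 -0.25, Hba-a2 -0.19, Hbb-bs -0.12, Hbb-bt -0.091, Alas2 -0.14, Fech -0.10, Bpgm -0.015) and for Fech (0.00437 between genotypes unlesioned, -0.26 for the mean). Fech also reversed with voom (0.45 for control, 0.28 between genotypes unlesioned) and for the mean with DESeq2 (-0.00987), RLE (-0.00988) and the filter of 10 counts (-0.17). Alas2 (0.055) and Bpgm (0.20) reversed for the mean with voom, Bpgm (0.016) with no filter and Hba-a1 (-0.0613) for mutant with the filter of 10 counts. The causes were not tested.

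With a library left out, ranges that crossed 0 were, for control, -0.60 to 0.80 (Fech) and -0.97 to 0.027 (Bpgm); for the mean, -0.11 to 0.59 (Fech), -0.25 to 0.27 (Bpgm) and -0.47 to 0.17 (Alas2); for genotypes unlesioned, -0.84 to 0.71 (Fech); for genotypes at 4dpl, -0.18 to 0.63 (Hba-a1), -0.032 to 0.67 (Hba-a2), -0.099 to 0.70 (Hbb-bs), -0.066 to 0.69 (Hbb-bt), -0.22 to 0.81 (Alas2) and -0.026 to 0.77 (Bpgm); and for the interaction, -0.42 to 1.13 (Fech). Every globin reversal at 4dpl came without control 4dpl replicate 3, and those of Fech and Bpgm for control without control unlesioned replicate 1 (Fech also without control 4dpl replicate 3). The summed hemoglobin log2 ratio stayed between -1.74 and -1.03 in control and between 0.07 and 0.70 in mutant mice. Leaving hemoglobin or all blood cell markers out of the library size changed no count of members. Of the 10 genes most like hemoglobin, 6 were shared when group means were removed.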

Other observations

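Of 13 genes that bind or break down hemoglobin and heme, 3 rose in control mice at 4dpl by the edgeR test and none was called lower: Lrp1, the receptor for heme bound to hemopexin (log2 difference 1.85, SE 0.39, adjusted p = 0.0265), Blvra, which reduces biliverdin (0.82, SE 0.21, adjusted p = 0.0360), and Ftl1, the light chain of the iron store ferritin (1.504, SE 0.41, adjusted p = 0.0417). The share of all genes called higher was 5.12%, and the list had a median of 0.75, with 10 of 13 above 0. Hp, haptoglobin, which binds free hemoglobin, lay lower without overlap in control 4dpl libraries, as did 21.4% of all genes. It is named after its values were seen. In the other direction, 5 of the 13 lay higher without overlap (Lrp1, Hmox2, Blvra, Fth1 and Ftl1), against 16.5% of all genes. Of the microglia markers, 8 of 8 were higher in control mice at 4dpl (8 at an unadjusted p below 0.05, 2 called, median 1.28). In mutant mice 8 of 8 were higher too (3 at an unadjusted p below 0.05, 0 called, median 0.85). The share of all genes higher at that level was 15.9% in mutant mice and was not computed for control mice. The sum of these markers took between 0.288 and 0.648% of counts in control unlesioned and between 0.701 and 1.24% in control 4dpl libraries. Their part in the result was not tested. Hmox1, heme oxygenase, was at 345 ± 299 CPM in control unlesioned and 1839 ± 1279 CPM in control 4dpl libraries (SD, n = 3) and was not called (log2 difference 2.41, SE 0.80, adjusted p = 0.0637). In mutant mice, where hemoglobin was level or higher with TMM and slightly lower by total counts, none of the 13 was called (7 had an unadjusted p below 0.05 and were higher, against 15.9% of all genes higher at that level and 0.135% called), with a median of 1.05, and Hmox1 was at 73.8 ± 20.1 and 1275 ± 932 CPM. Over the 12 libraries the summed level of the list had an r of -0.01 with that of hemoglobin (rho = 0.10). Without control unlesioned library 2, or control 4dpl library 1 or 2, none of the 13 was called in control mice.

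Among other blood cell lists, no T and NK cell marker was called in control mice at 4dpl (1 of 10 had an unadjusted p below 0.05), and the B cell factor Pax5 fell (log2 difference -2.13, SE 0.40, adjusted p = 0.0252), from 3.47 ± 0.64 to 0.792 ± 0.165 CPM (SD, n = 3). Of 8 monocyte markers, Plac8 fell (log2 difference -1.44, SE 0.43, adjusted p = 0.0486) and Fn1, fibronectin, rose (1.92, SE 0.53, adjusted p = 0.0425). These 3 calls were not recomputed with libraries left out. The whole table held 1, 4 and 2 calls without control unlesioned library 2 and control 4dpl libraries 1 and 2.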
